A study of Mus musculus with 6 samples.

Results

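Of 187625 distinct T cell receptor β (TCR-β) clonotypes in 6 libraries, 6212 were read at least 1 time in each of 2 mouse spleens. A clonotype was a TRBV gene, a TRBJ gene and the amino acids of the complementarity-determining region 3 (CDR3) with no stop or frame mark, and those found in both spleens are called public here. The other 144535 spleen clonotypes were found in 1 spleen, 58514 in spleen 1 and 86021 in spleen 2, and are called private, which says only that the other spleen gave no read of them. Public clonotypes made up 9.60% of the clonotypes of spleen 1 and 6.74% of those of spleen 2, and they carried 14.1% and 10.3% of the reads. The choice used the spleen reads, so every spleen value below is a description with no test. Tumor reads played no part in the choice, but a clonotype found in a tumor has the same CDR3 features as in the spleen.

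The study sequenced the TCR-β repertoire of 2 C57BL/6 mice with a treated tumor, a distant tumor and a spleen library each. All mice carried MO4 tumors, a B16F10 melanoma line that expresses ovalbumin, in both hindlimbs. IFN-α-iPSC-pMC, interferon-α-producing myeloid cells made from induced pluripotent stem cells, were injected next to the right tumor 5 times between day 5 and day 13 after inoculation, with 1000000 cells each time, and RNA was taken on day 14. The treated tumor is the right one, the distant tumor is the left one of the same animals, and both spleens come from these tumor-bearing, injected mice, so no library comes from an untreated animal. The files hold TCR-β alone, so the tissues could not be checked against other marker genes. Libraries are numbered 1 and 2 in each tissue, and the same number was taken to mean the same mouse. The 4 tumors therefore come from 2 animals in pairs, and p-values measure the spread between these libraries and not between animals. The exact permutation tests take each tumor library as a unit, and those of treated against distant tumors leave the pairing out.

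The variable part of a TCR-β chain is assembled in the thymus by joining a V, a D and a J segment. Nucleases trim the segment ends and terminal transferase adds nucleotides that are not templated, so CDR3, the loop that contacts the peptide, is the most varied stretch. Receptors that need little trimming and few added nucleotides can arise many times over, and such receptors are known to recur between individuals of a strain.

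The sequences below show what public CDR3 loops looked like. They are 8 of the 10 public clonotypes with the highest share in the spleen where they were lower, each with its TRBV and TRBJ genes.

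TRBV13-2/TRBJ1-6: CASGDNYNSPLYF
TRBV1/TRBJ2-7: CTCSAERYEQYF
TRBV13-2/TRBJ2-5, first: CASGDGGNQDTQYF
TRBV13-2/TRBJ2-5, second: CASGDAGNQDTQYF
TRBV20/TRBJ2-7: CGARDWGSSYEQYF
TRBV31/TRBJ1-4: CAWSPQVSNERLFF
TRBV1/TRBJ2-4: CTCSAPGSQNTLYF
TRBV13-2/TRBJ2-4: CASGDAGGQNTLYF

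The other pair of the 10 used TRBV13-2 with TRBJ2-1 and TRBV16 with TRBJ2-7, so 5 of the 10 used TRBV13-2. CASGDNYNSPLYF had 1 residue, N, that matched neither the germline end of its V gene nor that of its J gene. The other sequences had between 2 and 5 such residues, for example ER in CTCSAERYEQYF. The public sequence with the most reads over the tumors is shown next, since the share of public reads in a tumor turned on it.

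TRBV16/TRBJ2-7, leading both tumors of number 2: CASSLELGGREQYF

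Most public clonotypes were seen in few reads. Of the 6212, 4567 had 1 read in at least 1 spleen and 1847 had 1 read in both, while 1645 had at least 2 reads in both, 131 at least 5 and 21 at least 10. Just outside the rule stood 43909 clonotypes with 1 read in spleen 1 and 64741 with 1 read in spleen 2 that had 0 in the other. Spleen clonotypes with more reads were found in the other spleen more often. In spleen 1, 6.99% of the clonotypes of 1 read, 12.9% of those of 2 reads, 19.9% of those of 3 to 4 reads and 36.2% of those of 5 to 9 reads were also in spleen 2. In spleen 2 the same classes gave 4.59%, 9.30%, 16.1% and 31.6%. At 10 or more reads the share was 36.1% in spleen 1 and 33.8% in spleen 2. The largest clonotypes could still be private. The clonotype of spleen 2 with the most reads, TRBV15 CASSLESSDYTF, had 411 reads there and 0 in spleen 1, where the limit for a count of 0 is a share of 0.00310%.

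Public clonotypes had more reads than private ones in the spleen, with a mean of 2.19 reads against 1.42 in spleen 1 and 2.26 against 1.41 in spleen 2. They held 29 and 33 of the 100 most abundant clonotypes of spleen 1 and spleen 2. TRBV13-2 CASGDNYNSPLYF had 31 reads in spleen 1 (0.0320%, Wilson 95% interval 0.0225% to 0.0454%) and 65 in spleen 2 (0.0479%, 0.0376% to 0.0611%). TRBV1 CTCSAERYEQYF had 72 and 37 reads. TRBV31 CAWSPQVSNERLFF had 167 and 22 reads, which is 0.172% of spleen 1 and 0.0162% of spleen 2. The labels name no molecular identifiers for the PCR, so reads are not independent molecules and intervals and limits cover counting error only.

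Public clonotypes differed from private ones in the residues outside the germline ends. Each CDR3 was matched from its first residue to the germline end of its V gene and from its last residue to that of its J gene, and the residues between the matches were counted. Public clonotypes held 2.91 such residues on average (SD 1.20), against 4.54 in clonotypes of spleen 1 only and 4.53 in those of spleen 2 only. The differences of -1.63 residues in each spleen describe the same members 2 times and are not independent. Their match was longer at both ends, with 4.59 residues of the V end against 3.98 and 3.97 and 5.90 residues of the J end against 5.42 and 5.41. At most 3 residues outside the germline ends were found in 69.2% of public clonotypes, 31.9% of those of spleen 1 only and 32.1% of those of spleen 2 only.

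The share of clonotypes that were public was lower at every step towards more of these residues. In spleen 1, 52.2% of the clonotypes with 0 such residues were public (Wilson 95% interval 45.4% to 59.04%), then 35.1% with 1, 23.6% with 2, 14.0% with 3, 8.05% with 4, 4.15% with 5 and 1.31% with 6. With 7 or more it was 0.0392%, which is 3 of 7652 clonotypes. Spleen 2 gave 37.1%, 26.3%, 17.1%, 10.00%, 5.63%, 2.90%, 0.901% and 0.0263% for the same steps. The order was the same among clonotypes of 1 read, with values from 39.4% down to 0.0273% in spleen 1 and from 27.7% down to 0.0273% in spleen 2, so it was also there with the reads in the spleen held at 1.

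**Figure D1:**
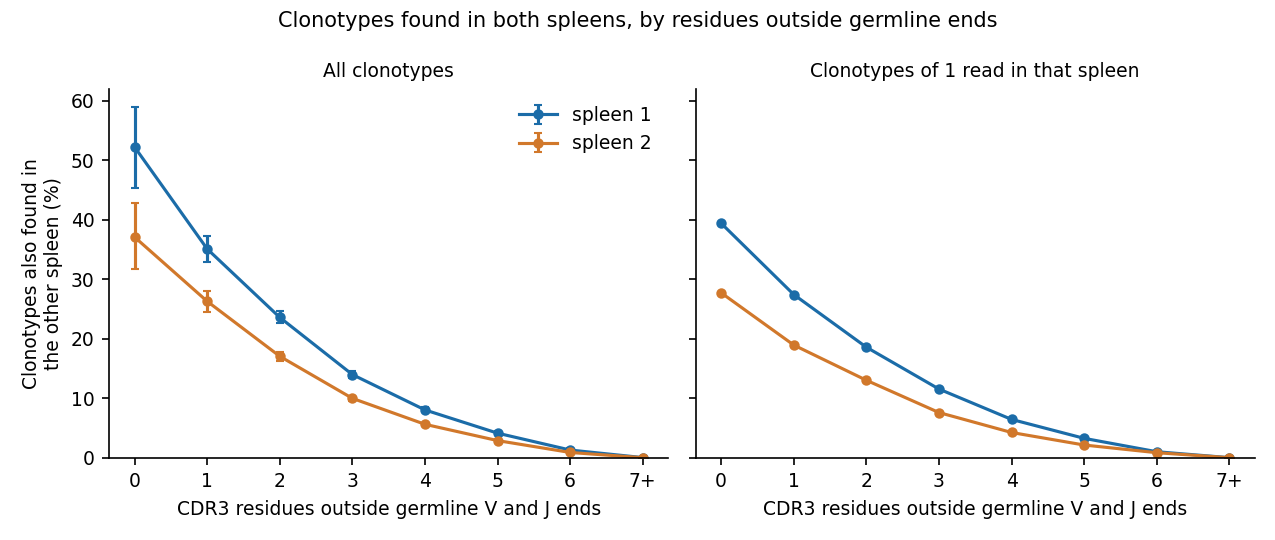
Percentage of the clonotypes of a spleen that were also found in the other spleen (y axis), by the number of CDR3 residues outside the germline V and J ends (x axis). The left panel shows all clonotypes with Wilson 95% intervals and the right panel those of 1 read in that spleen; spleen 1 is blue and spleen 2 orange. Each further step is lower in both panels, in spleen 1 from 52.2% to 0.0392% on the left and from 39.4% to 0.0273% on the right.

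Public CDR3 loops were also shorter. Their mean length was 13.4 residues (SD 1.26), against 13.9 (SD 1.46) for clonotypes of spleen 1 only and of spleen 2 only, which is a difference of -0.540 and -0.503 residues. The shortest members had 8 residues and numbered 3, among them TRBV13-2 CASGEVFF with 0 residues outside the germline ends, which had 2 reads in spleen 1 and 1 in spleen 2. The longest members had 17 residues and numbered 8, among them a TRBV5 and TRBJ1-6 loop with 1 read in each spleen. In spleen 1 the public share was between 11.6% and 14.9% for lengths of up to 13 residues, 10.7% at 14, 6.73% at 15, 2.99% at 16 and 0.446% at 17 or more.

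**Figure D2:**
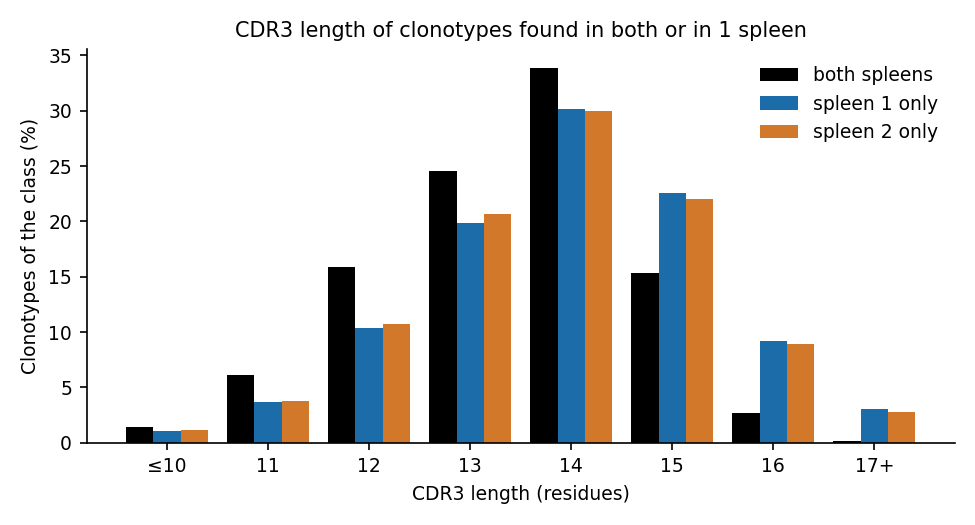
Share of the clonotypes of each class (y axis, percent) by CDR3 length in residues (x axis), for public clonotypes (black), clonotypes of spleen 1 only (blue) and of spleen 2 only (orange). Public clonotypes are more frequent than both other classes at 14 residues or fewer and less frequent at 15 or more, with 15.4% against 22.6% and 22.0% at 15 residues.

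At a single length the public share was mostly lower with more residues outside the germline ends, with exceptions in thinly filled classes. Among spleen 1 clonotypes of 14 residues, 29.4% of those with 2 residues outside the germline ends were public, 16.04% of those with 3, 9.59% of those with 4 and 5.69% of those with 5. In spleen 2 the values were 21.7%, 11.7%, 6.81% and 4.01%. The 38 clonotypes of spleen 2 with 1 such residue at this length lay out of the order, at 18.4%. At 15 residues, 13.5% of 52 clonotypes of spleen 1 with 2 such residues were public against 15.4% of those with 3, and in spleen 2 8.64% of 81 against 11.6%. Length at a fixed number of such residues gave another order. With 2, 3, 4 or 5 of them, the public share was higher at each step from 12 to 14 residues in both spleens. It was then lower at 15 than at 14. With 1 or 6 of them the share did not rise at every step. Longer loops were thus not less often public between 12 and 14 residues at 2 to 5 such residues. With 3 of them, the public share in spleen 1 was 11.8% at 12 residues, 13.6% at 13, 16.04% at 14 and 15.4% at 15, and in spleen 2 it was 8.17%, 9.42%, 11.7% and 11.6%.

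TRBV gene use differed between the classes. TRBV13-2, on chromosome 6 at 41121396 to 41121832 (GRCm38, GENCODE M21), was used by 17.8% of public clonotypes, 12.8% of those of spleen 1 only and 11.4% of those of spleen 2 only. TRBV1 was used by 9.34% against 7.95% and 6.75%, and TRBV12-2 by 6.68% against 5.92% and 5.11%. At the other end, TRBV29 was used by 3.19% against 5.24% and 5.77%, TRBV19 by 2.70% against 4.36% and 4.40%, and TRBV2 by 1.35% against 2.71% and 2.97%. Of 23 TRBV genes, 7 had a higher and 13 a lower share among public clonotypes in both comparisons. No public clonotype used TRBV21, TRBV24 or TRBV30, which had 21 to 200 clonotypes in a spleen. When clonotypes were defined by CDR3 alone, reads were pooled over genes and each CDR3 took the V and J genes with the most reads. Gene shares then describe pooled loops, and the differences of TRBV13-2 and TRBV1 turned negative, at -2.38 and -2.87 percentage points. With at least 2 reads in both spleens the difference of TRBV13-2 was larger, at 9.70 against 5.72 points over all members. That of TRBV29 was smaller with CDR3 alone, at -0.878 against -2.31 points. TRBV12-1 and TRBV12-2, and the genes of the TRBV13 family, are close relatives, and reads could be split between them.

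**Figure D3:**
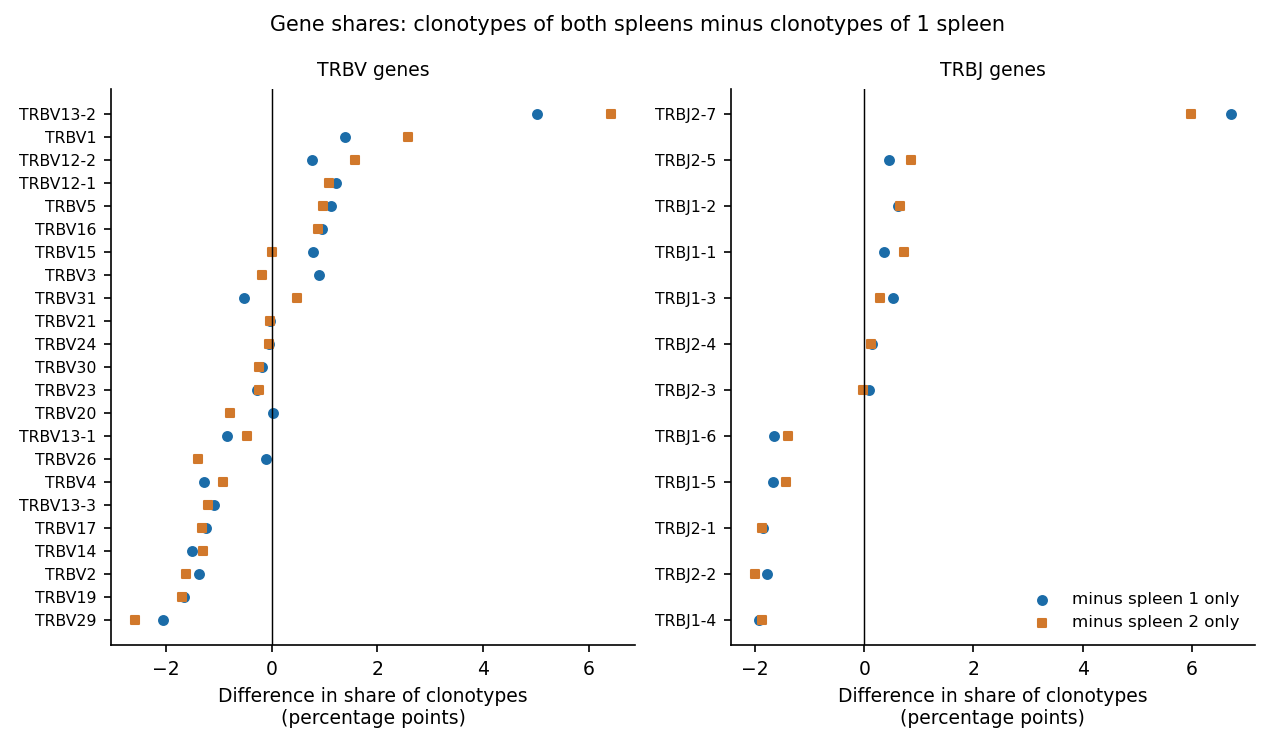
Share of public clonotypes that use a gene minus its share among clonotypes of 1 spleen (x axis, percentage points), for TRBV genes (left) and TRBJ genes (right), against spleen 1 only (blue circles) and spleen 2 only (orange squares). TRBV13-2 and TRBJ2-7 lie farthest to the right, with 17.8% and 25.1% of public clonotypes.

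Genes also differed among clonotypes with an equal number of residues outside the germline ends. Among those with exactly 3 of them, 14.0% of all clonotypes of spleen 1 and 10.00% of spleen 2 were public. For TRBV13-2, 21.2% were public in spleen 1 and 17.1% in spleen 2. TRBV29 gave 8.89% and 6.00%, TRBV19 9.18% and 6.25%, and TRBV2 7.18% and 4.50%. Other genes lay near the overall value, such as TRBV12-1 with 13.6% and 10.01%, TRBJ2-4 with 13.01% and 9.48% and TRBJ1-3 with 12.4% and 8.43%. The genes also differed in use: TRBV13-2 took 13.3% and 11.8% of all clonotypes of the spleens, and TRBV2 took 2.58% and 2.86%. Use and public share did not always go together. TRBV29 took 5.04% and 5.59% and TRBV12-1 took 5.37% and 5.46%, while their public shares differed as given above.

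Of the J genes, TRBJ2-7, at 41543810 to 41543856 on chromosome 6, stood apart. It was used by 25.1% of public clonotypes against 18.4% of those of spleen 1 only and 19.1% of those of spleen 2 only. TRBJ2-5 followed with 13.6% against 13.1% and 12.7%, and TRBJ1-2 with 5.92% against 5.30% and 5.28%. TRBJ1-4 was used by 4.46% against 6.40% and 6.34%, TRBJ2-2 by 3.86% against 5.64% and 5.88%, and TRBJ2-1 by 9.35% against 11.2% and 11.2%. The TRBJ2 cluster as a whole took 71.3% of public clonotypes and 67.6% and 68.3% of private ones, a difference that TRBJ2-7 alone exceeded. The pair TRBV13-2 with TRBJ2-7 was the most frequent of 226 pairs, in 236 public clonotypes or 3.80%, against 2.26% and 2.07%.

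In the middle of the loop, after the first 4 and before the last 4 residues, public clonotypes held more glycine, aspartate and tyrosine and less arginine, proline and valine. Glycine took 22.9% of 33569 middle residues against 21.2% and 21.5% in clonotypes of 1 spleen, aspartate 10.5% against 9.12% and 8.92%, and tyrosine 5.28% against 4.19% and 4.23%. Arginine took 4.15% against 6.25% in spleen 1 only and 6.20% in spleen 2 only, proline 2.51% against 3.69% and 3.62%, and valine 1.15% against 2.04% and 2.03%. Glycine is the residue that the D segments encode most often, and aspartate and tyrosine stand in the germline ends of V and J genes. The middle as cut here can hold such germline residues, as the aspartate in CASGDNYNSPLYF and the first tyrosine in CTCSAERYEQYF. Residue and gene differences can therefore overlap, and they were not separated. With CDR3 alone the difference of aspartate was 0.343 percentage points against 1.43 in the full definition, and that of proline -0.362 against -1.14.

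Public clonotypes more often had a close relative in sequence among all clonotypes of their spleen. Another clonotype of the same V and J genes and length that differed at 1 residue was present in the same spleen for 90.4% of public clonotypes in spleen 1 and 93.3% in spleen 2, against 44.7% and 49.3% of private ones. Among clonotypes of 1 read the values were 87.7% and 90.9% against 41.9% and 45.7%. The classes were not compared at an equal number of residues outside the germline ends. Another public clonotype was at 1 residue for 63.8% of all public clonotypes, with no private value to set beside it. Many also shared their loop across V genes: the CDR3 of 49.3% of public clonotypes was joined to another TRBV gene in the spleens, against 18.1% for private ones. The 6212 clonotypes held 5405 distinct CDR3 sequences, and the following were paired with the most TRBV genes. Another loop, with the same last residues, was paired with 7.

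Paired with 11 TRBV genes: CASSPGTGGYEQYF
Paired with 9 TRBV genes: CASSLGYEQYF

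Both end in the germline end of TRBJ2-7. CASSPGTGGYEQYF had 32 reads in spleen 1 and 36 in spleen 2 over its public forms, and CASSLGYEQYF had 29 and 35.

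In the tumors, few clonotypes were public and they carried many reads, as did clonotypes of 1 spleen. Where 4 tumor values follow each other below, their order is treated and distant tumor of number 1, then treated and distant tumor of number 2. The number found was 248, 246, 124 and 307, which was 1.94%, 2.20%, 1.64% and 2.97% of the clonotypes of the library. They took 14.9%, 18.5%, 14.3% and 15.9% of the productive reads. Clonotypes of 1 spleen were 5.41%, 7.47%, 6.00% and 12.2% of the clonotypes. Those took more reads than the public ones in each tumor, at 26.6%, 39.1%, 30.8% and 35.0%. The libraries held between 42320 and 83171 productive reads. Clonotypes found in neither spleen were 84.9% to 92.6% of the tumor clonotypes. In bulk RNA, fewer cells of a clone and less receptor RNA per cell cannot be told apart.

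**Figure D4:**
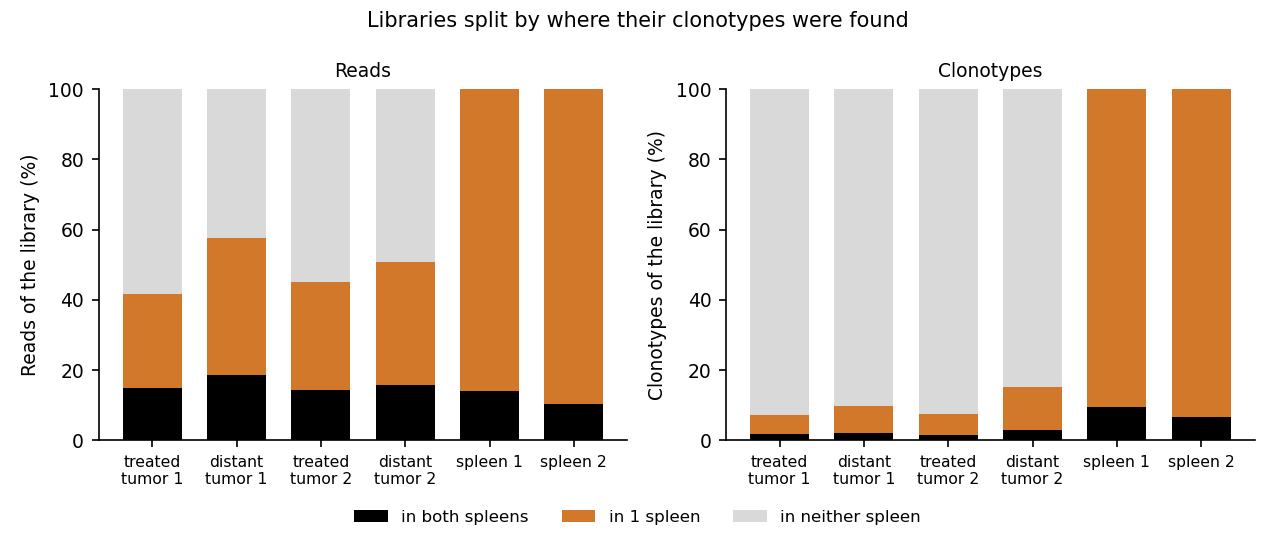
Productive reads (left) and clonotypes (right) of each library as percentages (y axes), split into clonotypes found in both spleens (black), in 1 spleen (orange) and, in tumors, in neither (grey). In the tumors the black part is 14.3% to 18.5% of the reads and 1.64% to 2.97% of the clonotypes.

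Treated and distant tumors were compared in these shares, with too few libraries for the test to pass a threshold of 0.05. The share of reads was 14.6% ± 0.446 in treated and 17.2% ± 1.85 in distant tumors (SD, n = 2 each), a difference of -2.58 percentage points, with -3.58 in number 1 and -1.59 in number 2 (exact permutation p = 0.333, two-sided, the smallest that 2 against 2 allows). The share of clonotypes was 1.79% ± 0.211 and 2.58% ± 0.545 (SD, n = 2 each), a difference of -0.788 points, with -0.253 in number 1 and -1.32 in number 2 (exact permutation p = 0.333, two-sided). The direction of the read share changed with single large clonotypes. Without TRBV16 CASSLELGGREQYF the shares were 14.9%, 13.8%, 10.8% and 10.6%, and the difference turned to 0.664 points. When reads were dropped wherever another library held at least 1000 times more, a TRBV29 and a TRBV5 clonotype were no longer public and the shares were 14.9%, 12.5%, 11.2% and 15.9%. The difference was then -1.12 points, with a higher share in the treated tumor of number 1 and a lower one in that of number 2 (exact permutation p = 0.667, two-sided).

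TRBV16 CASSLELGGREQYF had 0 reads in treated tumor 1, 4461 in distant tumor 1 (5.43%), 2172 in treated tumor 2 (3.87%) and 2494 in distant tumor 2 (5.89%). It was thus found in 3 of 4 tumors and in both numbers, with 6 and 5 reads in the spleens. A TRBV29 and TRBJ2-1 clonotype had 4949 reads in distant tumor 1 (6.02%), more than any other public clonotype there, and 0 in the 3 other tumors. A TRBV5 and TRBJ2-3 clonotype, second in its library, had 1740 reads in treated tumor 2 (3.10%) and 0 in the others. The public standing of the last pair rests on 2 and 2 spleen reads and on 1 and 2. These are the pair that lost it when reads were dropped, and the part of reads carried between libraries was not tested. A TRBV13-2 and TRBJ2-2 clonotype, the leading public one of treated tumor 1, was higher in the treated tumor in both numbers, with 1365 reads (1.64%) against 13 (0.0158%) and 269 (0.480%) against 7 (0.0165%). The TRBV13-2 and TRBJ2-1 clonotype of the 10 above was high in number 2 alone, with 758 treated reads (1.35%) and 532 distant reads (1.26%), against 11 and 0 in number 1. Its spleen reads were 15 in spleen 1 and 146 in spleen 2. Other leaders of the distant tumors were TRBV13-2 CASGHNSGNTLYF, with 474 reads in distant tumor 2 and 1 or 0 in the other tumors, and TRBV15 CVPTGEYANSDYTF, with 523 reads in distant tumor 1, 36 in treated tumor 1, 1 in treated tumor 2 and 0 in distant tumor 2. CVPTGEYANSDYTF is 1 of 3 public clonotypes with 7 or more residues outside the germline ends. In spleen 1 and spleen 2, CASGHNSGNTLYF had 1 and 1 reads and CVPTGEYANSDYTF had 5 and 1. The TRBV13-2 and TRBJ2-2 clonotype had 2 and 5. The public standing of these clonotypes thus also rests on few spleen reads. They kept it when reads were dropped, but their tumor reads were too few to reach the ratio set for that step.

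Within a tumor, public clonotypes had a higher mean read count than clonotypes of 1 spleen. They held 49.996 reads on average in treated tumor 1 against 32.0, then 61.7 against 38.4, 64.5 against 38.2 and 21.9 against 11.8. Clonotypes of neither spleen held 2.37 to 4.42. The log2 ratio of public to 1-spleen clonotypes was 0.75 ± 0.11 (SD, n = 4) and positive in 4 of 4 tumors (exact sign-flip permutation p = 0.125, two-sided, the smallest that 4 tumors allow). It was 0.34 without TRBV16 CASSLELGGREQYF, 0.29 with the mean of log2 reads and 0.20 with CDR3 alone. Every public clonotype is by definition in the spleen of the tumor's number, while clonotypes of 1 spleen may be in the other spleen only. Those in the spleen of the tumor's number were 405 of 691, 593 of 837, 351 of 452 and 1057 of 1260. The ratio was not computed for these alone. The median reads were 13 against 7, 7 against 7, 10 against 9 and 4 against 4, so the medians were level in both distant tumors. Members with more spleen reads were found in tumors more often. Of those with 1 read in their lower spleen, 8.28% were found in a tumor, of those with 2 to 4 reads 17.3% and of those with 5 or more 43.5%. The 131 members of the last class carried 3.85%, 6.64%, 6.81% and 7.999% of the reads of the tumors. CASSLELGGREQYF alone was 5.43, 3.87 and 5.89 points of the last 3 values.

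The differences in sequence features seen in the spleens held among the spleen clonotypes that were found again in the tumors. Public clonotypes had fewer residues outside the germline ends than clonotypes of 1 spleen in 4 of 4 tumors, with 2.66 against 3.46 in treated tumor 1, then 2.69 against 3.62, 2.88 against 3.84 and 2.73 against 3.61. The mean difference was -0.891 ± 0.0726 (SD, n = 4; exact sign-flip permutation p = 0.125, two-sided). Their loops were shorter in 4 of 4, by differences of -0.306 to -0.544 residues, with a mean difference of -0.411 ± 0.0989 (SD, n = 4; exact sign-flip permutation p = 0.125, two-sided). When clonotypes were weighted by their reads the residue difference was -0.127 (exact sign-flip permutation p = 0.75, two-sided) and the length difference turned to 0.0892. With 6 comparisons over the tumors, p-values of 0.125 became 0.188 and those of 0.333 stayed at 0.333 after Benjamini-Hochberg adjustment (exact permutation tests), and none can pass 0.05 with these libraries. These tumor clonotypes are a subset of those in the spleens, so the comparison shows which of them were found again and is not a second draw of members. The p-values for residues and length are therefore no independent test of these features. Here too the clonotypes of 1 spleen include those found only in the spleen of the other number.

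TRBV13-2 was also the leading V gene among the public clonotypes of each tumor, with 21.8%, 22.0%, 20.2% and 22.8%. It also led among the clonotypes of 1 spleen in those libraries, at 14.04%, 13.3%, 13.1% and 11.6%. TRBJ2-7 took 27.4%, 26.8%, 32.3% and 30.0% of the public clonotypes against 22.6%, 20.1%, 21.5% and 20.8%. These are again spleen clonotypes found in a tumor, so the gene shares are a description and not a second draw.

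Public clonotypes were found in tumors more often than private ones of the same spleen count. Of the clonotypes with exactly 1 read in the spleen of the same number, 2.54% of the public ones were in treated tumor 1 against 0.449% of those of that spleen only. The values were 2.30% against 0.547% in distant tumor 1, 1.19% against 0.253% in treated tumor 2 and 2.44% against 0.663% in distant tumor 2. The mean difference was 1.64 ± 0.496 percentage points (SD, n = 4) and positive in 4 of 4 tumors (exact sign-flip permutation p = 0.125, two-sided). In tumors of the other number the public clonotypes are by definition also in the spleen of that number and the private ones are absent from it, so the values are given as a description. Public clonotypes of 1 read in spleen 2 were in treated and distant tumor 1 at 2.67% and 2.67%, against 0.266% and 0.199% of private ones. Those of 1 read in spleen 1 were in treated and distant tumor 2 at 1.45% and 3.54%, against 0.146% and 0.276%.

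**Figure D5:**
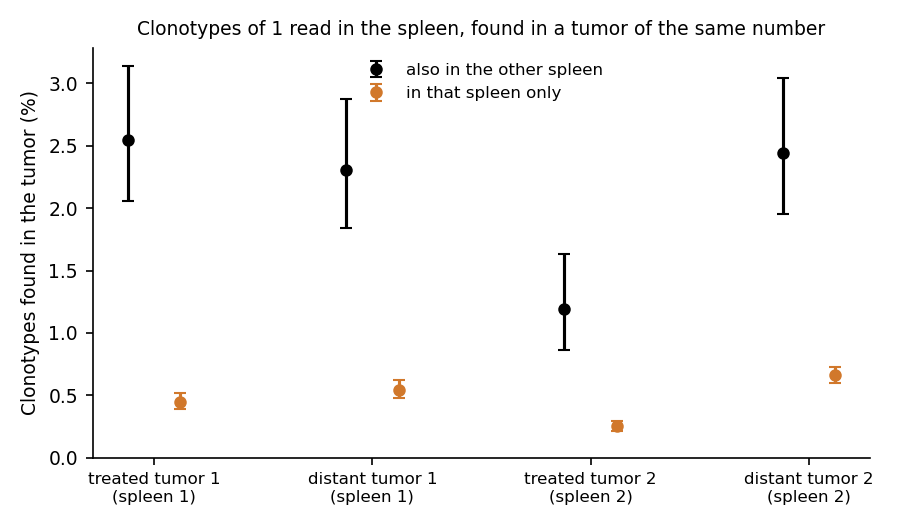
Percentage of spleen clonotypes of exactly 1 read that were found in a tumor of the same number (y axis), for clonotypes also present in the other spleen (black) and in that spleen only (orange), with Wilson 95% intervals that cover counting error only. The black points lie between 1.19% and 2.54% and the orange points between 0.253% and 0.663%, and the intervals do not overlap in any of the 4 tumors.

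Over all 4 tumors, 697 public clonotypes (11.2%) were found in at least 1, against 2847 private ones (1.97%). Of the 697, 203 were in treated tumors only, 370 in distant tumors only and 124 in both. Private clonotypes were also more numerous in the distant tumors, with 691 treated and 837 distant in number 1 and 452 and 1260 in number 2. All clonotypes together numbered 12761 treated and 11201 distant in number 1, and 7539 and 10347 in number 2. Their split into treated only, distant only and both was not counted, so no leaning of the public ones can be read from these counts. The public ones found in a tumor had fewer residues outside the germline ends than those found in none, with 2.70 against 2.93. Tumors of both numbers held 400 clonotypes in common, of which 104 were public and 68 were in 1 spleen. By tumor, 72 public clonotypes were shared by treated tumor 1 and distant tumor 1 and 52 by treated and distant tumor 2. Treated tumor 1 and distant tumor 2 shared 61, and treated tumor 2 and distant tumor 1 shared 37. Of all clonotypes, 605 were shared by the tumors of number 1 and 421 by those of number 2, and the other pairs were not counted.

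No clonotype passed the main test of treated against distant tumors over the libraries. Of 3331 clonotypes with at least 10 reads over the 4 tumors, the quasi-likelihood test of edgeR (adjusted after Benjamini and Hochberg) called 0 (0%) and gave none an unadjusted p under 0.05. Of these, 283 were public, and 153 of them had a positive fitted change, as did 1803 of all. DESeq2 called 19 (0.57%), among them the TRBV29 and TRBV5 clonotypes just described, which each had all their reads in 1 of the 4 tumors. The TRBV29 clonotype, with 4949 reads in distant tumor 1, had an unadjusted p of 0.219 in the edgeR quasi-likelihood test. With so few libraries the edgeR count of 0 does not show that the tumors were alike.

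Between the tumors of a mouse, reads differed in both directions. Fisher's exact test over clonotypes with at least 10 reads compares 2 libraries and not the conditions. In number 1 it called 54.2% of 2257 clonotypes higher in the treated tumor and 41.6% lower there, and of 200 public ones it called 119 (59.5%) and 70 (35.0%). In number 2 it called 48.2% of 1113 higher and 45.7% lower in the treated tumor, and of 117 public ones 44 (37.6%) and 61 (52.1%). More of them were present in both tumors of the mouse, with 34.5% against 15.95% of all tested clonotypes in number 1 and 37.6% against 21.6% in number 2.

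A set of 19 public clonotypes was found in all 6 libraries, 14 of them with 3 or fewer residues outside the germline ends. TRBV1 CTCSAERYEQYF had 262, 81, 41 and 15 reads in the tumors, 72 in spleen 1 and 37 in spleen 2. It was higher in the treated than in the distant tumor in both numbers. The TRBV16 and TRBJ2-7 clonotype of 15 residues went the other way, with 91 reads (0.109%), 223 (0.271%), 51 (0.0910%) and 61 (0.144%) in the tumors. TRBV13-2 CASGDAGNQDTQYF had 1206, 122, 17 and 19 reads, so its high share was seen in number 1 alone. A family of 3 TRBV31 and TRBJ1-4 sequences that differ by 1 or 2 residues was among the 19.

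TRBV31, lead: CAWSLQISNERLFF
TRBV31, next: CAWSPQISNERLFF
TRBV31, last: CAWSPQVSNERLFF

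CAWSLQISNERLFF had 421, 3, 16 and 8 reads in the tumors. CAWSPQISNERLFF had 68, 7, 28 and 2, and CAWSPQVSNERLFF had 135, 18, 16 and 16. The shares of the first pair were higher on the treated side in both numbers, while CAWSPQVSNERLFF had 0.0285% in treated tumor 2 against 0.0378% in distant tumor 2. Of the remaining named members in all libraries, TRBV3 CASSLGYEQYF had 171, 6, 38 and 9 reads, TRBV29 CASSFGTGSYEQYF had 171, 41, 27 and 2, TRBV2 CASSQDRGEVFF 37, 11, 51 and 19, and TRBV3 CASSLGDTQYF 12, 31, 41 and 20.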

How the data were processed

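Total RNA was amplified by adaptor-ligation PCR for TCR-β and sequenced on a MiSeq, per the labels' protocols. The authors deposited, per the file headers, the V and J gene and CDR3 amino acids of each sequence with a whole-number read count with no normalization and a percent of reads. The deposited percent values matched reads over unmarked (productive) reads to within 0.00499 percentage points, and counts were used here. Neither aligner nor germline reference nor error handling is given in the sources used here. Productive reads per library ranged from 42320 to 135599, and 3 reads, the limit that a count of 0 allows, are 0.00221% to 0.00709% of a library.

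The members and lists were chosen with earlier results of these data known. Germline V and J ends were translated from GENCODE M21 transcripts (GRCm38) for 22 of 23 TRBV and 12 of 12 TRBJ genes, all but TRBV24. Matching is by amino acid, so a residue encoded by added nucleotides can count as germline. Named clonotypes are the 10 with the highest lower spleen share, the 5 with the highest mean in treated and in distant tumors, the 10 in all 6 libraries with the highest lowest share, the shortest, the longest and the 3 CDR3 sequences with most TRBV genes. Named genes and residues are the 3 most raised and 3 most lowered. The most read private clonotype was added after its values were seen.

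Groups come from the titles. Tumor shares were compared by exact permutation, paired differences by exact sign flips, and reads by edgeR 4.0.16 with library size set to productive reads, with DESeq2 1.42.0 and Fisher's exact test as alternatives (R 4.3.3, Python 3.11.15, SciPy 1.17.1). Germline matching and the edgeR test were tested on simulated data. The edgeR simulation recovered 39% of 200 clonotypes changed 8-fold. Its spread was set in advance and not taken from these data, so it does not give the power of the test here. Same-numbered libraries were taken as 1 mouse from the titles and the stated 2 mice. Deviations of TRBV usage over 21 genes correlated at 0.539 between the tumors, and with the spleen at 0.129 (treated) and 0.0759 (distant). Sequences with a stop or frame mark, 4.45% to 6.62% of reads, were left out.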

Additional observations from a re-analysis of the deposited data

Results flagged for a closer look

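Sequences with a stop or frame mark, which the comparisons leave out, also recurred: 56 were found in both spleens. They are 0.997% of the 5615 marked sequences of spleen 1 and 0.669% of the 8370 of spleen 2, against 9.60% and 6.74% for unmarked clonotypes.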

How the results depend on the processing

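Requiring at least 2 reads in both spleens left 1645 public clonotypes, and CDR3 amino acids alone gave 10075. The spleen length difference moved to -0.629 with at least 2 reads, -0.556 with CDR3 alone and -0.557 weighted by reads. The spleen difference in residues outside the germline ends moved to -1.85 with at least 2 reads, -1.61 with spleens at equal depth, -1.62 with CDR3 alone, -1.62 with 1-residue variants merged and -1.52 weighted by reads. With CDR3 alone, where a loop shared by several genes took the one with the most reads, TRBV13-2 and TRBV1 turned to -2.38 and -2.87 percentage points. The cause was not tested. The treated minus distant read share turned to 0.332 without the 10 most abundant clonotypes of each tumor and to 0.664 without TRBV16 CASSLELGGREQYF, the latter chosen after seeing the data, as were tumors at equal depth, and was -1.12 with reads dropped where another library held 1000 times more. Tumor length weighted by reads turned to 0.0892, and the cause was not tested. Leaving out each tumor gave -3.89 to -1.28 for the read share, -1.17 to -0.402 for the clonotype share, -0.446 to -0.367 for tumor length, -0.924 to -0.869 for tumor residues, 0.70 to 0.78 for log2 reads and 1.49 to 1.88 for detection. The edgeR count was 0 with the replicate block and with each tumor left out, where the lone library is assumed to vary like the other group. With no unadjusted p under 0.05 over all tumors these values say nothing about stability. DESeq2 gave 19 and Fisher's exact test 2161 in number 1 and 1046 in number 2. With at least 2 reads in both spleens, detection was compared at 2 reads in place of 1, and its difference was 2.56 percentage points. Depth limits membership, since a clonotype of few cells can be missed in a spleen. The number of T cells per library is not known here.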

Other observations

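The 19 public clonotypes found in all 6 libraries, looked at after their values were seen, took 6.28% of the reads of treated tumor 1 and 1.34% of distant tumor 1, and 2.71% of treated tumor 2 and 0.747% of distant tumor 2. In the spleens they took 0.620% and 0.174%. Their share was higher in the treated tumor for 15 of 19 in number 1 and for 15 of 19 in number 2, for 13 in both numbers, and lower in both for 2. Without the 2 that were highest in treated tumors, which both use TRBV13-2, the rest took 3.19% against 1.18% in number 1 and 2.20% against 0.685% in number 2. No test was made, since the set was chosen on the tumors as well. Among the 19, a TRBV14 and TRBJ1-6 clonotype, outside the naming rule and chosen after its values were seen, had 236 reads in spleen 1 and 11 in spleen 2, and 3 and 192 in the treated and distant tumor of number 1 and 356 and 14 in those of number 2. TRBV12-1 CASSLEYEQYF, chosen likewise, had 1 read in each spleen and 462 and 142 reads in the treated and distant tumor of number 1 and 73 and 3 in those of number 2.

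Of the 72 public clonotypes in both tumors of number 1, 47 were higher on the treated side, and of the 52 in number 2, 31 were. Of all clonotypes found in both tumors, 285 of 605 in number 1 and 213 of 421 in number 2 were higher there. Among all such clonotypes with at least 10 reads, Fisher's exact test between the tumor libraries called 165 of 360 higher in the treated tumor of number 1 and 99 lower. In number 2 it called 130 of 240 higher and 43 lower. For the public ones the counts were 41 higher and 17 lower of 69, then 20 higher and 12 lower of 44. The public share called higher thus lay above that of all in number 1 and below it in number 2. No difference between public and other clonotypes was tested.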
